A study of Mus musculus with 2 samples.

Results

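MHC class II high microglia were 568 of the 1433 barcodes that a marker rule called microglia, out of 13145 barcodes kept in the whole series. The rule took barcodes with at least 1000 UMIs (unique molecular identifiers, each standing for 1 captured RNA molecule), at least 300 genes and at most 15% mitochondrial UMIs. Microglia had to carry at least 3 UMIs in sum of P2ry12, Tmem119, Siglech, Gpr34 and Fcrls, at least 5 of the C1q genes C1qa, C1qb and C1qc, and no UMI of the B cell genes Cd79a, Cd79b and Ms4a1 or of the T cell genes Cd3d, Cd3e and Cd3g. They were called class II high at 10 or more UMIs per 10000 of H2-Aa, H2-Ab1, H2-Eb1 and Cd74 in sum, and class II low under that limit. The control library gave 253 high and 514 low microglia, and the LTS library gave 315 high and 351 low.

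Both libraries came from brains of Kunming mice, an outbred stock, that carried G422-GBM, a mouse glioma line placed in the brain and also written G422TN. Control mice were untreated and their tumour tissue was taken on day 7 after inoculation. LTS mice had lived for more than 100 days after combined therapy and then received the same tumour on the other side of the brain. Per the design text they again lived past 100 days, and tissue was taken on day 7 after tumour inoculation; which inoculation this day counts from is not clear from the text. The therapies, the age of the mice and the number of animals behind each library are not given in the sources used here. Tissue was digested with collagenase IV and DNase I, and cells were collected from the interphase between 70% and 37% Percoll, a density step that sets which cells were captured. There was 1 library per group, so no difference below has a replicate check and none was tested; intervals are exact 95% intervals that cover counting error only.

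MHC class II molecules present peptides from the extracellular space and from lysosomes to CD4 T cells. H2-Aa, H2-Ab1 and H2-Eb1 encode the alpha and beta chains, and Cd74 encodes the invariant chain that blocks the peptide groove until cathepsin S, the product of Ctss, cuts it away. H2-DM, from H2-DMa, H2-DMb1 and H2-DMb2, then loads peptide, H2-DO, from H2-Oa and H2-Ob, holds H2-DM back, and Ciita encodes the transactivator that switches on these genes together, among other routes after interferon gamma. Microglia, the resident macrophages of the brain, carry little class II in the healthy brain and more of it around tumours, in ageing and in inflammation.

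The class II genes share promoter boxes through which the transactivator acts, and the promoter letters are shown because genes outside the rule were higher together with the rule genes. Of 9 class II symbols looked up, 7 had an entry in the RefSeq promoter table (GRCm38.p6). The 120 bases before the start site were searched on both strands for GATTGG, the Y box, and for ATGATGC, which was added after the sequences had been read. Capitals mark matches, 5′ to 3′ on the gene's strand, and CCAATC is GATTGG on the other strand.
H2-Aa (chr17:34287824-34287943, minus strand): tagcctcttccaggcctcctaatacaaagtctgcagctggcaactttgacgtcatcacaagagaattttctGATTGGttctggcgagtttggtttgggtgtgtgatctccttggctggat
H2-Eb1 (chr17:34305747-34305866, plus strand): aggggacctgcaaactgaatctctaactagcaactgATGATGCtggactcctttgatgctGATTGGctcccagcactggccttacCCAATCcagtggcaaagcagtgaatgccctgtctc
H2-DMb1 (chr17:34153071-34153190, plus strand): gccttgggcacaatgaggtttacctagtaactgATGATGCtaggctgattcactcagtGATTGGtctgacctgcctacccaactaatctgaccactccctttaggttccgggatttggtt
H2-Ob (chr17:34238785-34238904, plus strand): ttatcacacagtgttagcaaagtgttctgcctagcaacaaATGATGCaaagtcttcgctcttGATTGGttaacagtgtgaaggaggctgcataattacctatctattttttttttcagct
ATGATGC stood before GATTGG, with 17 bases between them, in H2-Eb1, with 18 in H2-DMb1 and with 15 in H2-Ob. H2-DMb2 held both as well, 18 bases apart, while H2-Oa and H2-Aa held GATTGG only and H2-DMa held neither at its 2 start sites. Of 32851 promoters of the same length in the table, 9.67% held GATTGG, 0.965% held ATGATGC and 0.0913% held both. These matches describe letters and were not tested against binding.

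The members were chosen by the measured level of the 4 rule genes and by their microglial, B cell and T cell UMIs, so these values are given as a description. Among control members the summed class II level ran from 10.09 through a median of 35.2 to 339 UMIs per 10000, and among LTS members from 10.2 through 67.0 to 815. The upper end of the range was the LTS library's: 131 of 315 LTS members (41.6%) stood at 80 or more, against 42 of 253 (16.6%) in the control, and 69 against 10 stood at 160 or more. The level ran on through the limit without a gap. The lowest members held 6 class II UMIs of 5949 in the control and 72 of 70584 in LTS, and the highest microglia outside held 2 of 2004 (9.98 per 10000) and 5 of 5131 (9.74). Between 8 and 10 per 10000 lay 34 control and 17 LTS microglia, and between 10 and 12 lay 27 and 13.

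**Figure D1:**
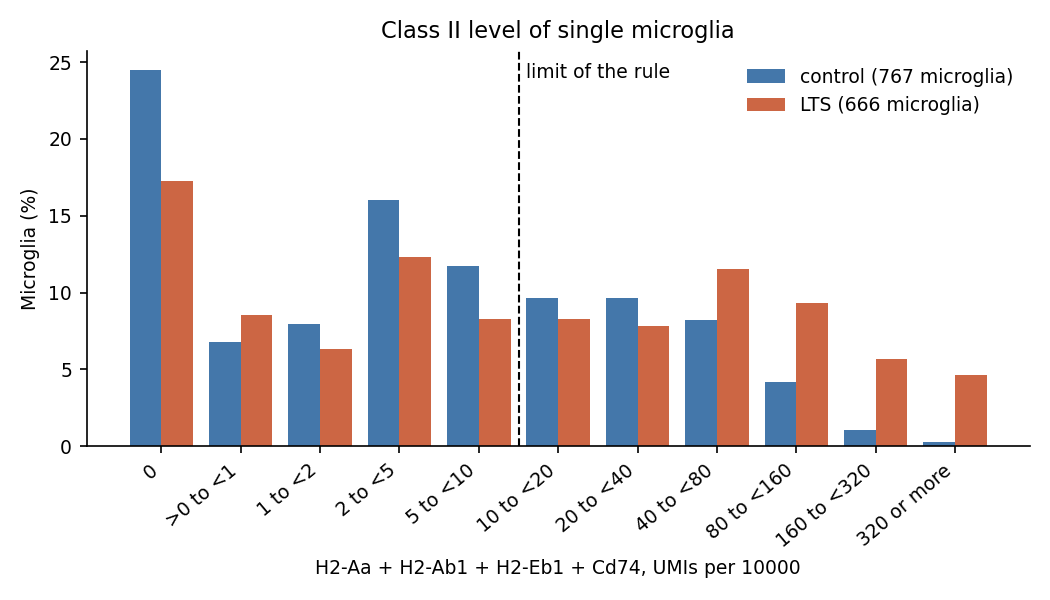
Share of microglia (vertical axis, percent) at each level of the 4 rule genes (horizontal axis, UMIs per 10000, classes of growing width), control in blue and LTS in orange, with a dashed line at the limit of 10. LTS has the taller bars in every class from 40 upwards.

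Of the high microglia, 67.2% in the control and 77.1% in LTS held UMIs of all 4 rule genes, and 98.4% and 99.7% held a UMI of Cd74. Of the low microglia, 36.6% and 32.8% held no UMI of the 4 genes. Within the high class, Cd74 measured 2099 CPM (UMIs per 1000000 UMIs of the class) in the control and 4484 in LTS, a ratio of 2.14 (2.05 to 2.22). H2-Aa stood at 597 and 1375 CPM, 2.30 (2.14 to 2.48)-fold, H2-Eb1 at 2.02-fold and H2-Ab1 at 1.85-fold. In low microglia the ratios of LTS to control lay between 0.915 (Cd74) and 1.06 (H2-Aa), which the limit of the class holds down. All 4 rule genes were thus higher in the LTS members.

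Class II high cells made up 33.0% of microglia in the control (29.7 to 36.4) and 47.3% in LTS (43.4 to 51.2). The limit is a rate, so a shallow barcode can pass it with few UMIs: high microglia had medians of 4862 UMIs in the control and 4082 in LTS, and low ones 6489 and 11251. Within bands of depth the share was again larger in LTS. From 1000 to under 3000 UMIs it was 42.4% in the control and 60.6% in LTS, from 3000 to under 6000 it was 42.1% and 69.5%, from 6000 to under 12000 it was 29.5% and 45.1%, and from 12000 it was 11.2% and 23.1%. The order of the libraries was the same in all 4 bands, and their intervals overlapped in the deepest band alone. With each barcode thinned to 1000 UMIs, 42.2% of control microglia and 54.7% of LTS microglia kept a class II UMI. The same measure in barcodes with matrix genes such as Col1a1 and Postn and no UMI of Ptprc or C1q, which should lack class II, was 3.36% and 2.13% (unthinned 40.4% and 40.1%, at medians of 16140 and 33210.5 UMIs). Of those barcodes 0.305% and 0.152% reached the limit of the class.

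**Figure D2:**
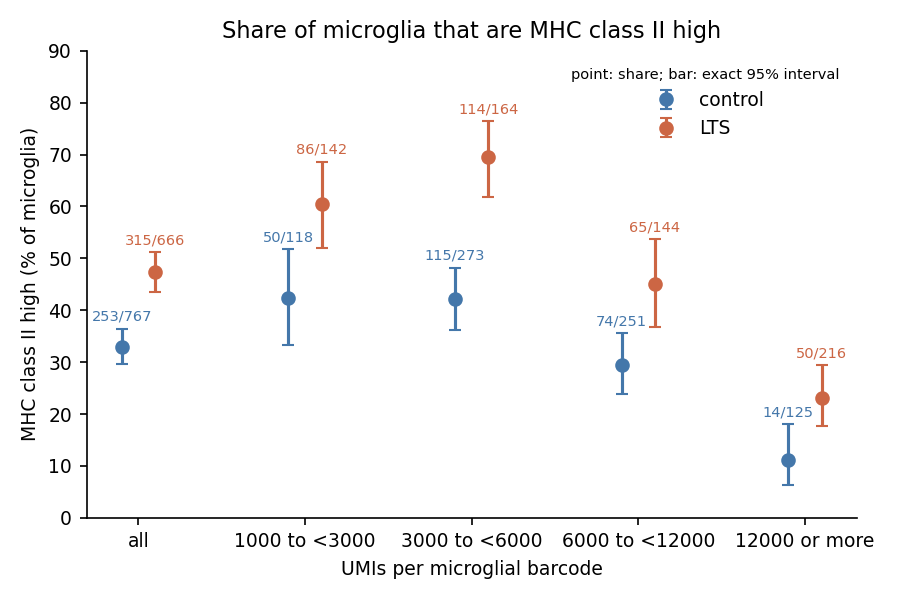
Share of microglia that are MHC class II high (vertical axis, percent) over all microglia and in 4 bands of UMIs per barcode, with exact 95% intervals and the counts printed beside the points, control in blue and LTS in orange. The LTS point lies above the control point in every band, and both shares are lowest at 12000 UMIs or more.

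The members carried the genes of microglia. C1qa was at 4940.4 CPM in control and 6024 in LTS high microglia, P2ry12 at 297 and 529, and Tmem119 at 413 and 577; part of this is set by the rule. Sall1, which the rule did not use, stood at 120.2 and 137 CPM. The 5 B cell markers summed to 0.646 CPM in control and 0 in LTS members, the 7 T cell markers to 0.646 and 1.31, and the 6 neutrophil markers to 3.88 and 3.93. The 9 markers of border-associated macrophages, which sit at the brain's surfaces and vessels, summed to 62.1 and 72.5 CPM with Lyve1 at 0 in both, the 9 of monocytes and monocyte-derived macrophages to 744 and 804, and the 10 of dendritic cells to 135 and 136 with Cd209a, Ccr7 and Ccl22 at 0 in both. Per cell, the monocyte list ran from 0 to 58.0 and 97.2 UMIs per 10000, the border list to 27.3 and 41.1, and the dendritic list to 7.69 and 16.3. Of 10 other myeloid markers (Mrc1, Pf4, Ms4a7, Ly6c2, Ccr2, Flt3, Zbtb46, Xcr1, Clec9a, Cd209a), 88.9% of control and 84.8% of LTS members held no UMI. These 10 leave out most of the monocyte list. A UMI of that list was held by 87.4% of control and 68.3% of LTS members, and by 88.5% and 85.8% of low microglia. Plac8 was found in 62.1% and 35.9% of members and S100a4 in 55.3% and 35.6%. Sums and shares do not show how single genes of this list differed, and its ratios are given below.

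Among the members, these other myeloid genes lay towards the top of the class II range. At 80 or more class II UMIs per 10000, 28.6% of control and 22.1% of LTS members held a UMI of the 10 markers, against 7.58% and 10.3% of members under 80 and 15.6% and 17.9% of the deeper class II low microglia. Ccr2, a chemokine receptor of monocytes, reached 77.6 and 65.4 CPM there, and Ms4a7, a gene of border-associated and monocyte-derived macrophages, 217 and 111. Their part in the results below was not tested beyond leaving such barcodes out, which is given where it turns a value.

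Microglia of low C1q stood apart and bear on every contrast of high with low. In 8 high and 88 low control barcodes, and in 7 high and 62 low LTS barcodes, C1q was under 40 UMIs per 10000. They were large, with median UMIs of 26528.5 and 26403.5 in the control and 49932 and 46361.5 in LTS. Their 10 tumour and matrix markers reached medians of 28.9, 26.1, 24.2 and 23.5 UMIs per 10000, where high microglia as a whole had medians of 7.25 and 3.44. They gave 13.2% of the UMIs of control high microglia and 48.0% of those of control low, and 13.9% and 53.8% in LTS. No doublet caller was run, and whether such barcodes hold RNA of more than 1 cell was not tested. High-over-low counts of gene lists are therefore given over all barcodes of the rule and again with C1q at 40 or more, an alternative chosen after seeing the data and called C1q-rich. Ratios of single genes are given both ways or as each sentence says. Levels in CPM are over all barcodes unless the text says otherwise.

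Over all barcodes of the rule, 6.86% of 6965 genes with at least 20 CPM on either side were 1.5-fold or more higher in high than in low control microglia and 7.9% were as much lower; in LTS it was 11.7% and 12.1% of 7045. With median-of-ratios scaling the counts went from 478 higher and 550 lower to 581 and 446 in the control, and from 823 and 855 to 1039 and 625 in LTS. Among C1q-rich microglia the shares were 2.4% higher and 1.4% lower in the control and 5.57% and 1.84% in LTS.

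Genes of peptide loading were higher in the class II high microglia. H2-DMa measured 301 CPM in control high and 79.1 in control low microglia, a ratio of 3.81 (3.33 to 4.36), and 349 and 88.1 CPM in LTS, a ratio of 3.96 (3.55 to 4.43). Among C1q-rich cells these ratios were 2.50 (2.18 to 2.88) and 2.30 (2.05 to 2.58). H2-DMb1 stood at 131 and 22.2 CPM in the control and 165 and 24.9 in LTS. Its C1q-rich ratios were 3.55 (2.78 to 4.55) and 4.3 (3.51 to 5.31), so both subunits of H2-DM were higher in the high class of each library with and without the low-C1q barcodes.

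The genes of H2-DO were sparser. H2-Oa had 11.6 CPM in control high and 3.45 in control low cells, and 35.8 and 3.57 in LTS, with C1q-rich ratios of 1.91 (0.924 to 3.93) and 6.41 (3.81 to 11.4). H2-Ob had 11, 2.68, 15.3 and 3.90 CPM in the same order, and H2-DMb2 7.76, 2.68, 17.9 and 2.60. The C1q-rich ratios of H2-Ob were 2.64 (1.21 to 5.92) and 2.13 (1.22 to 3.79), and those of H2-DMb2 1.87 (0.778 to 4.44) and 3.94 (2.14 to 7.67). The levels of all 3 were thus higher in the high class of both libraries, by less among C1q-rich cells, and the C1q-rich control intervals of H2-Oa and H2-DMb2 included 1. Ciita had 10 counts in control high microglia (6.46 CPM) and 4 in control low (0.766 CPM), and without barcodes holding a UMI of Mki67 or Top2a its control log2 ratio was -0.60. In LTS it had 28 counts (12.2 CPM) in high microglia and 0 of 6155334 UMIs in low, which allows up to 0.487 CPM, so it was at least 25.1-fold higher against a floor of 3 counts in the group. Among C1q-rich cells it had 9 counts in control high and 1 in control low microglia, and 27 and 0 in LTS, at least 13-fold higher by the same floor.

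Ctss, the protease that trims the invariant chain, measured 2843 against 1399.6 CPM in the control and 3330.2 against 1254 in LTS. The C1q-rich ratios were 1.29 (1.25 to 1.35) and 1.51 (1.46 to 1.56). Ifi30, a lysosomal thiol reductase, had C1q-rich ratios of 1.16 and 0.795. Of the pathway genes other than the rule genes, 5 of 8 measured in the control and 7 of 9 in LTS were 1.5-fold or more higher and none lower, with median log2 ratios of 0.71 and 1.12. Among C1q-rich cells it was 2 of 8 and 5 of 10, with medians of 0.27 and 0.44 beside 0.03 and -0.00157 over all genes.

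Costimulatory and checkpoint genes were higher over all barcodes, where 6 of 8 measured genes in the control and 7 of 8 in LTS were 1.5-fold or more higher, with medians of 0.76 and 1.21. Among C1q-rich cells it was 0 of 8 and 3 of 8, with medians of 0.17 and 0.49. Cd86, the costimulatory ligand microglia carry, was at 132 and 70.7 CPM in control high and low cells and 165 and 77.5 in LTS, with C1q-rich ratios of 1.18 (0.984 to 1.41) and 1.23 (1.07 to 1.42). Cd80, the other ligand of Cd28, had no count in high microglia of either library, which allows a share of cells with a UMI of up to 1.19% and 0.952% (3 cells of the class). Cd274, which encodes the inhibitory ligand PD-L1, had ratios of 1.48 and 2.75 over all barcodes and C1q-rich ratios of 1.04 (0.723 to 1.49) and 1.71 (1.31 to 2.24), and Cd40 stood at 9.70 and 14.9 CPM in high cells, with C1q-rich ratios of 1.89 (0.873 to 4.09) and 2.13 (1.18 to 3.90). Pdcd1lg2 stayed at 0.646 and 1.31 CPM.

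Among interferon genes, the ratios were larger over all barcodes than among C1q-rich cells. Cxcl9, a chemokine induced by interferon gamma that draws T cells, led the genes named by size, which were ranked by the smaller of their 2 log2 ratios. It stood at 155 CPM in control high and 13.8 in control low microglia, 11.2 (8.61 to 14.8)-fold, and at 135 and 22.4 in LTS, 6.04 (4.93 to 7.44)-fold, with C1q-rich ratios of 8.08 and 3.63. Few cells carried it: 18.2% of control and 10.8% of LTS high microglia held a UMI, against 6.42% and 8.83% of the deeper low microglia and 3.05% and 2.29% of the matrix-gene barcodes. Thinned to 1000 UMIs it was 7.51% and 4.44% of high and 1.36% and 2.56% of low microglia, and 1 cell gave 18.8% and 15.2% of the counts. Cxcl10, a ligand of the same receptor, measured 468 and 268 CPM in the control and 562 and 159.5 in LTS, with C1q-rich ratios of 1.09 (0.990 to 1.19) and 2.06 (1.88 to 2.25), and its control log2 ratio was -0.28 without barcodes holding a UMI of Mki67 or Top2a. Ccl5 measured 156, 91.8, 269.5 and 59.8 CPM in the same order, with C1q-rich ratios of 1.24 (1.05 to 1.47) and 2.56 (2.24 to 2.94) and with 21.6% and 16.5% of the counts of high cells in 1 cell.

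Irf1, a transcription factor induced by interferon, had ratios of 1.41 and 1.89 over all barcodes and C1q-rich ratios of 1.22 (0.970 to 1.53) and 1.53 (1.26 to 1.85). Isg15 and Ifit3, type I interferon genes, had C1q-rich ratios of 0.917 and 0.846 and of 0.982 and 0.942. Over all barcodes, 2 of 20 measured genes of the type I list in the control and 5 of 21 in LTS were 1.5-fold or more higher, with medians of 0.44 and 0.30, and of the interferon gamma list 11 of 16 and 9 of 16, with medians of 0.76 and 0.64. Of the type I list, 0 of 20 measured genes in the control and 0 of 21 in LTS were 1.5-fold or more higher among C1q-rich cells, with medians of -0.07 and -0.22, and of the interferon gamma list 3 of 16 and 3 of 16, with medians of 0.24 and 0.19. Of the MHC class I list, whose products present peptides from inside the cell, 13 of 18 genes in the control and 13 of 18 in LTS were 1.5-fold or more higher over all barcodes, with medians of 0.70 and 0.86. Among C1q-rich cells it was 1 of 18 and 0 of 18, with medians of 0.16 and 0.18: B2m had C1q-rich ratios of 1.06 and 1.04, H2-K1 of 1.15 and 1.28, and H2-D1 of 1.16 and 1.36.

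**Figure D3:**
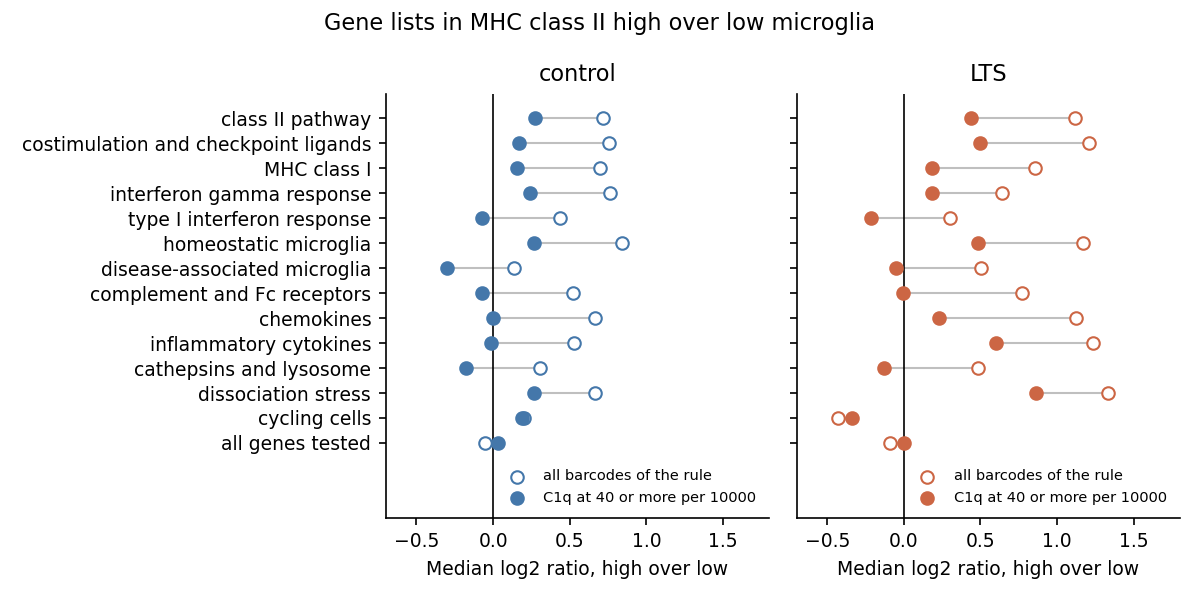
Median log2 ratio of MHC class II high over low microglia (horizontal axis) for 13 gene lists and for all genes tested, control left and LTS right, over all barcodes of the rule (open points) and among C1q-rich barcodes (filled points). The filled points lie nearer to 0 than the open ones for most lists, and dissociation stress in LTS has the largest filled value, 0.86.

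Most genes of resting microglia were higher in the class II high cells over all barcodes, and fewer of them among C1q-rich cells. Tmem119, a surface protein of microglia, measured 413 CPM in control high and 177 in control low cells and 577 and 185 in LTS, with C1q-rich ratios of 1.70 (1.53 to 1.90) and 2.03 (1.86 to 2.21). P2ry12, the purine receptor that guides microglial processes, had ratios of 1.66 and 3 over all barcodes and C1q-rich ratios of 1.09 (0.967 to 1.22) and 1.81 (1.66 to 1.97). Among C1q-rich cells Selplg was at 1.60 and 1.99, Siglech at 1.52 and 2.11, and Tgfbr1, a receptor of the TGF-beta signal that keeps microglial identity, at 1.49 and 2.45. Fcrls went the other way, at 0.635 (0.549 to 0.734) and 0.493 (0.433 to 0.559). Of 20 homeostatic genes, 16 of 20 in the control and 18 of 20 in LTS were 1.5-fold or more higher over all barcodes, and 3 of 20 and 9 of 20 among C1q-rich cells, where Fcrls was the 1 gene as much lower. The rule asked for microglial genes in both classes, at 3 or more UMIs, which a shallow cell reaches only at a higher rate.

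Genes of disease-associated microglia, the state described around plaques and injury, were divided. Itgax, which encodes the integrin CD11c, was at 35.6 against 9.58 CPM in the control and 42.8 against 11.2 in LTS, with C1q-rich ratios of 2.39 (1.57 to 3.65) and 2.41 (1.72 to 3.4). Lpl, a lipase of that state, had C1q-rich ratios of 0.781 (0.666 to 0.914) and 0.421 (0.361 to 0.491), and Cst7, a cystatin, of 0.818 (0.688 to 0.969) and 0.731 (0.633 to 0.843). Spp1, which encodes osteopontin, had 0.998 and 0.534, with 17.2% and 23.8% of the counts of high cells in 1 cell, and Apoe had 0.676 and 1.09. Axl and Trem2 were near level, at 0.996 and 0.998 and at 0.840 and 1.15. Over all barcodes, 3 of 19 measured genes of the list were 1.5-fold or more higher and 1 of 19 lower in the control, and 8 of 20 and 1 of 20 in LTS, with medians of 0.14 and 0.50. The medians were -0.30 and -0.05 among C1q-rich cells, where 1 of 20 measured genes were higher and 2 of 20 lower in the control, and 3 of 20 and 3 of 20 in LTS.

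The remaining genes named by the rule of largest ratios in both libraries were Trf, Tgfbi, Entpd1, F11r and Cst3. Cst3, the cystatin C gene that microglia express in abundance, measured 7931 and 3586 CPM in the control and 13514 and 4203 in LTS, and Entpd1, which encodes the ectonucleotidase CD39, 132, 42.7, 126 and 53.4. Their C1q-rich ratios were 1.49 and 1.96 for Cst3 and 1.98 and 1.40 for Entpd1. F11r had C1q-rich ratios of 1.67 and 1.37. Tgfbi, also on the monocyte list, had 2.37 and 3.36, and Trf, a transferrin gene of oligodendrocytes too, had 43.3% of its control counts in 1 cell. Of the monocyte list, 3 of 4 measured genes in the control and 5 of 7 in LTS were 1.5-fold or more higher over all barcodes. In each library 1 was lower, and the medians were 0.71 and 1.83, beside 6.86% and 11.7% of all genes higher. Among C1q-rich cells 1 of 4 and 4 of 7 were higher and 0 lower, with medians of 0.16 and 1.66. There 2.4% and 5.57% of all genes were higher. Chil3 had the list's largest log2 ratio in LTS, 3.28, or 3.29 among C1q-rich cells. Il1b, a cytokine gene, stood at 31.7 and 4.02 CPM in the control and 37.6 and 7.64 in LTS, with C1q-rich ratios of 3.72 (2.07 to 6.89) and 4.99 (3.13 to 8.22) and with 28.6% and 18.6% of the counts of high cells in 1 cell.

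The genes lowest in high against low microglia were Crip2, Twist1, Gja1, Gng11, Sema5a, Tead2, Igf2bp2, Phlda1, Lgals7 and Myo10. Crip2 was 2.84 (2.04 to 4.06)-fold lower in the control and 3.08 (2.29 to 4.23)-fold lower in LTS, and Twist1, a transcription factor of mesenchymal cells, 2.60-fold and 3.25-fold. Among C1q-rich cells the ratio of Twist1 was 0.830 (0.488 to 1.37) and 1.90 (1.00 to 3.64), that of Tead2 0.842 and 1.61, and that of Igf2bp2 1.15 and 1.35. Those of Crip2 were 0.588 (0.353 to 0.946) and 0.759 (0.418 to 1.34). Among C1q-rich cells 9 of the 10 genes stayed below 1 in the control and 4 of the 10, Crip2, Phlda1, Lgals7 and Myo10, in LTS, with ratios nearer to 1 than over all barcodes in both libraries for those 4.

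Among the C1q-rich members, some genes were higher with the level of class II and others lower. Cells were put into bins of under 10, 10 to under 20, 20 to under 40, 40 to under 80, and 80 or more class II UMIs per 10000, which held 426, 70, 70, 63 and 42 control cells and 289, 49, 51, 77 and 131 LTS cells. H2-DMa measured 134, 215, 286, 393 and 626 CPM across these bins in the control and 172, 229, 285, 401 and 542 in LTS. H2-DMb1 measured 39.1, 73.3, 109, 182 and 279 and 44.3, 76.5, 86.7, 196 and 306. Both were higher in each bin than in the bin before it, in both libraries. Ctss measured 2449, 2573, 3401, 3458 and 3701 CPM in the control and 2501, 3256, 3357, 3717 and 4347 in LTS, and Tmem119 268, 345, 463, 499.9 and 647 and 324, 522, 549.9, 708 and 757. These genes too were higher in each bin than in the one before, and Tmem119 was higher in LTS than in the control in every bin.

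The type I interferon list was lower in the higher bins. Its median per cell was 55.4, 48.4, 48.2, 42.1 and 31.1 UMIs per 10000 in the control and 54.2, 42.1, 35.7, 30.4 and 11.2 in LTS. The homeostatic list had medians of 133, 153, 185, 183 and 167 in the control and 151, 242, 318, 394 and 374 in LTS, so the libraries lay close together under the limit and far apart above it. The dissociation stress list, early-response genes that tissue digestion can switch on, had 40.2, 47.8, 57.9, 57.8 and 54.3 and 40.6, 51.8, 64.6, 86.7 and 109. The disease-associated list had a lower median per cell in the 4 bins above the limit than under it, at 192, 145, 113, 109 and 133 in the control and 211, 147, 157, 169.7 and 204 in LTS. Its summed level, which large cells weigh more, was 23942, 18444, 17098, 15082 and 23409.6 CPM in the control and 26328, 19333, 22448, 20639.6 and 28202 in LTS, where the top bin was above the bin under the limit. The bins differ in depth, with median UMIs of 5696, 5588, 4894, 4591 and 4126 in the control and 8378, 4788, 5605, 4492 and 3645 in LTS; the part of depth in these medians was not tested.

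**Figure D4:**
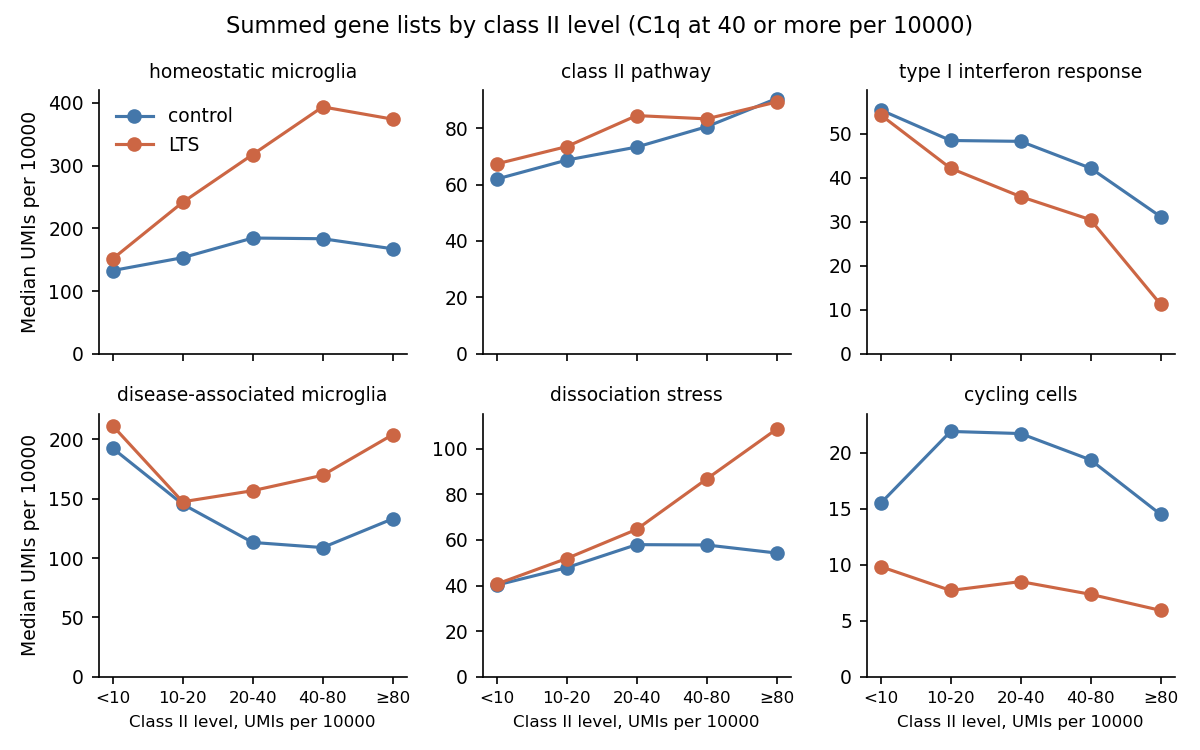
Median summed UMIs per 10000 of 6 gene lists (vertical axes) in C1q-rich microglia of 5 class II levels (horizontal axis, UMIs per 10000; the leftmost bin is the class II low cells), control in blue and LTS in orange. The type I interferon list goes down with class II level in both libraries, and the homeostatic and stress lists separate the libraries above the limit.

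Between the libraries, the class II high microglia differed more than the class II low ones. Over all barcodes of the rule, 5.14% of 6867 genes were 1.5-fold or more higher in LTS than in control high microglia and 5.2% lower, against 0.0886% and 0.443% of 6773 genes in low microglia. Among C1q-rich cells the shares were 6.39% and 8.06% in high and 0.736% and 4.09% in low microglia. Median-of-ratios scaling turned 353 higher and 357 lower genes of the high class into 435 and 269. The high class has fewer UMIs, 1546830 in the control and 2289325 in LTS against 5218682 and 6155334, so its ratios carry more counting error.

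Genes of resting microglia were higher in the LTS members. In high microglia Tgfbr1 measured 123 CPM in the control and 283 in LTS, 2.31 (1.96 to 2.73)-fold, against 1.26 (1.09 to 1.46) in low microglia. P2ry12 measured 297 and 529, 1.78 (1.60 to 1.99)-fold, against 0.991 (0.907 to 1.08) in low cells. Selplg was 1.84-fold higher, Cst3 1.70-fold and Tmem119 1.40-fold, while Sall1, a transcription factor of microglial identity, had a ratio of 1.14 (0.948 to 1.37). Of 20 homeostatic genes, 7 of 20 were 1.5-fold or more higher and none lower, with a median log2 ratio of 0.47 beside -0.05 over all genes. In low microglia 0 of 18 were, with a median of 0.04. The list holds the 5 microglial genes of the rule, P2ry12 and Tmem119 among them. These values are thus not independent of how the cells were chosen, and the list was not run without those genes. Among C1q-rich low microglia that median was 0.22.

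By the rule of largest ratio, Csmd3, Cd34, Col27a1, Ctsh, Abca9, Cebpa, Cadm1, Rgs2, Adgrg1 and Nav2 led the LTS side. Ctsh, a cathepsin, measured 80.2 CPM in control and 257 in LTS high cells, 3.20 (2.64 to 3.92)-fold, against 1.14 (0.973 to 1.34) in low cells. Cebpa, a transcription factor of the myeloid lineage, measured 26.5 and 80.8, 3.05 (2.16 to 4.39)-fold, and Adgrg1, the adhesion receptor GPR56, 44.0 and 113, 2.56 (1.96 to 3.4)-fold. Cd34 had a ratio of 4.05 (2.51 to 6.87), Csmd3 of 5.15 (3.05 to 9.30) and Rgs2, a regulator of G protein signalling, of 2.58 (2.18 to 3.05). In each of these no single cell gave more than 12.5% of the counts on either side. In low microglia the ratios of these 10 genes ran from 0.713 (Cd34) to 2.34 (Csmd3).

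Apoe, Trem2, Lyz2 and C3 were also higher in the LTS members. Apoe, the lipid carrier, measured 3906 CPM in the control and 6621 in LTS, 1.70 (1.65 to 1.75)-fold, against 1.02 (1.00 to 1.04) in low microglia. Trem2, the lipid receptor upstream of the disease-associated state, was 1.59 (1.47 to 1.73)-fold and Lyz2, the lysozyme gene of macrophages, 2.10 (1.95 to 2.27)-fold. C3, the central complement gene, measured 12.9 and 47.6, 3.68 (2.27 to 6.27)-fold, with at most 20.2% of the counts of either side in 1 cell. Spp1 had a ratio of 0.860 (0.818 to 0.904), or 0.532 (0.499 to 0.568) among C1q-rich cells, and Lpl of 0.95 (0.798 to 1.13). Most matrix-gene barcodes held Spp1 too, as given above. Of the disease-associated list, 6 of 20 measured genes were higher and none lower, and Gpnmb, its largest ratio, had 47.0% of its LTS counts in 1 cell.

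Beyond the rule genes, most of the class II pathway differed by less than 1.5-fold between the libraries. H2-Oa measured 11.6 and 35.8 CPM in high microglia, 3.08 (1.83 to 5.45)-fold. H2-DMb2, under the minimum of 20 CPM, had a ratio of 2.31 (1.19 to 4.83). H2-DMa had a ratio of 1.16 (1.03 to 1.30), H2-DMb1 of 1.26 (1.06 to 1.50), Ctss of 1.17 (1.13 to 1.22) and Ciita of 1.89 (0.892 to 4.37). Within the bins of class II level above the limit, H2-DMa, H2-DMb1 and Ctss were each higher in LTS in some bins and lower in others. The part of class II level in these ratios was not tested. H2-Oa and Cd83 were the 2 of 9 measured pathway genes at 1.5-fold or more, beside 5.14% of all genes, and none was as much lower. Cd83, a marker of activated antigen-presenting cells, was 1.57 (1.20 to 2.07)-fold higher. Of the ligands that T cells read, Vsir, which encodes the checkpoint protein VISTA, measured 166 and 318, 1.92 (1.66 to 2.22)-fold, Cd274 1.73 (1.24 to 2.45)-fold, Icosl 2.07 (1.38 to 3.16)-fold and Cd86 1.25 (1.05 to 1.49)-fold.

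In summed counts, most interferon genes had ratios near or below 1 between the libraries. Per cell the libraries lay further apart. The type I list had medians of 45.7 UMIs per 10000 in control and 19.8 in LTS high microglia, and the interferon gamma list 20.9 and 11.9. In low microglia the medians were 50.8 and 45.5 for the type I list and 15.8 and 12.8 for the interferon gamma list. Iigp1, a GTPase induced by interferon gamma, was 1.77 (1.45 to 2.16)-fold lower in LTS high microglia, Gbp2 1.58 (1.31 to 1.90)-fold (a log2 ratio of 0.00345 without barcodes holding a UMI of Mki67 or Top2a) and Zbp1, a nucleic acid sensor, 1.43 (1.19 to 1.71)-fold. Cxcl9 had a ratio of 0.873 (0.735 to 1.04) and Cxcl10 of 1.20 (1.09 to 1.32). Of the type I list, 0 of 21 measured genes were higher and 0 of 21 lower by 1.5-fold, and of the interferon gamma list 1 of 16 and 2 of 16, with medians of -0.18 and -0.17. Ccl5, the 1 higher gene of the second list, was 1.73 (1.49 to 2.02)-fold. Class I genes stayed within 1.5-fold, with H2-D1 at 1.36 (1.30 to 1.42) and B2m at 1.02 (0.985 to 1.06).

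Many early-response genes and some cytokine genes were higher in LTS. Btg2 measured 340.1 CPM in control and 698 in LTS high cells, 2.05 (1.86 to 2.27)-fold, Jund 2.17-fold, Dusp1 2.09-fold, Junb 1.74-fold and Egr1 1.34-fold. Of the dissociation stress list, 8 of 15 measured genes were higher by 1.5-fold and none lower, with a median of 0.71, against 0 of 14 and 0.00 in low microglia. Il1a, a cytokine gene of microglia, was 2.08 (1.57 to 2.77)-fold higher, Tnf 1.50 (1.23 to 1.84)-fold, Nlrp3, the inflammasome sensor, 1.74 (1.22 to 2.52)-fold and Cd14, a receptor of bacterial products, 1.79 (1.52 to 2.11)-fold; of the cytokine list 3 of 10 measured genes were 1.5-fold or more higher and none lower. The part of tissue handling in these differences was not tested, and with 1 library per group it cannot be told apart from the group.

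**Figure D5:**
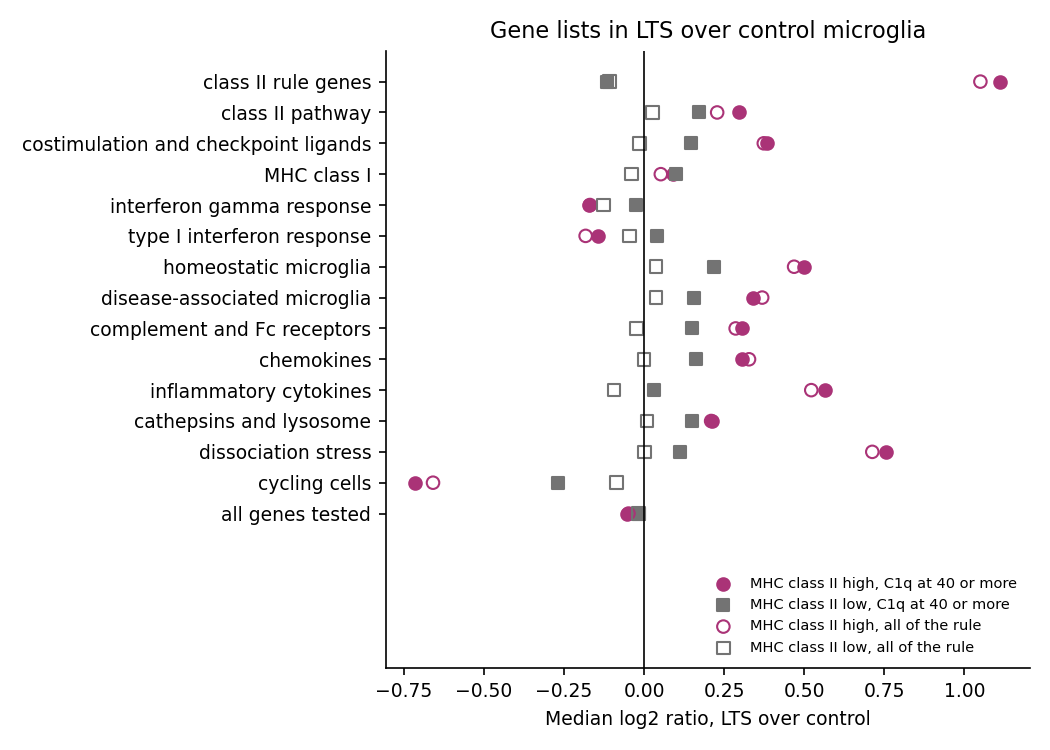
Median log2 ratio of LTS over control (horizontal axis) for 14 gene lists and for all genes tested, in MHC class II high (purple circles) and class II low microglia (grey squares), over all barcodes of the rule (open) and C1q-rich barcodes (filled). The high class lies at 1.05 for the rule genes, 0.71 for dissociation stress and -0.66 for cycling cells, and over all barcodes the low class lies between -0.13 for the interferon gamma list and 0.04 for the homeostatic list.

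Cell cycle genes were lower in the LTS members. Top2a, the topoisomerase of dividing cells, measured 527 CPM in control and 232 in LTS high microglia, 2.27 (2.03 to 2.53)-fold lower, and Mki67 measured 269.6 and 129.7, 2.08 (1.79 to 2.42)-fold lower. In low microglia the levels over all barcodes were 402 and 357 CPM for Top2a and 186 and 173 for Mki67. Among C1q-rich low microglia they were 334 and 236 CPM for Top2a and 200 and 164 for Mki67. Of 18 cycling genes, 13 of 18 were 1.5-fold or more lower in LTS high microglia and none higher, with a median of -0.66, against 0 of 18 and -0.09 in low ones. Among C1q-rich high microglia 15 of 18 were as much lower, with a median of -0.71. Among C1q-rich low microglia it was 1 of 18, with a median of -0.27. Kif20b, Casc5, Cenpe, Nusap1 and Aurka, all genes of mitosis, were among the 10 lowest ratios; Aurka, a mitotic kinase, was 2.62 (1.79 to 3.89)-fold lower and Cenpe, a kinesin of the kinetochore, 2.42 (1.94 to 3.04)-fold.

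A UMI of Mki67 or Top2a was found in 67.6% of control and 36.2% of LTS high microglia, and in 72.4% and 58.4% of the deeper low ones. With C1q-rich barcodes thinned to 1000 UMIs it was 31.4% and 13% in high and 32.6% and 22.5% in low microglia. These genes were also seen in the matrix-gene barcodes, where 28.99% in the control and 24.1% in LTS held a Top2a UMI at that depth, and what free RNA adds to these shares was not tested. Among microglia without a UMI of either gene, 36.6% were class II high in the control and 57.9% in LTS, and among those with one 31.5% and 35.7%. Among C1q-rich microglia the same shares were 36.8% and 58.7% without such a UMI and 36.4% and 42.2% with one. The libraries thus lay further apart in microglia without a cycling UMI. This split was made on unthinned counts, where a deep barcode more readily holds such a UMI, and the class II high share was lowest in the deepest barcodes. The part of depth in these shares was not tested.

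The other 4 of the 10 lowest ratios, Pbld2, Dennd5b, Snhg9 and Exoc1, had low ratios in class II low cells too. Pbld2 measured 289.6 and 95.2 CPM in high microglia and 379 and 112 in low ones, and 759 and 369 CPM in barcodes of at most 100 UMIs, which hold free RNA. Snhg9 had ratios of 0.369 in high and 0.295 in low microglia, Dennd5b of 0.363 and 0.321, and Exoc1 of 0.425 and 0.432. Of the markers of other myeloid cells, Ly6c2 measured 9.05 and 43.2 CPM in high microglia with 45.5% of the LTS counts in 1 cell, Ccr2 11.6 and 26.6, Ms4a7 41.4 and 43.7, Mrc1 8.4 and 17.5, and Flt3 and Zbtb46 under 2 CPM each. Of 7 measured genes of the monocyte list, 4 were 1.5-fold or more higher in LTS high microglia and 0 lower. Of all genes, 5.14% were higher and 5.2% lower. The list's median log2 ratio was 0.64, and Chil3 had the largest, 3.12. Among C1q-rich high cells 4 were higher and 1 lower, with a median of 0.85. In low microglia 0 of 4 were higher and 0 lower, with a median of 0.05. Without barcodes holding a UMI of the 10 other myeloid markers the homeostatic median of LTS over control was 0.55 and that of the cycling list -0.75.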

How the data were processed

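Single-cell RNA sequencing was analysed from 2 libraries, 1 of control and 1 of LTS mice, made with Chromium single-cell 3′ version 3 reagents per the labels' protocols. The authors deposited raw UMI counts per gene and barcode, from Cell Ranger 4 (per the file headers) and on mm10 (per the submitters' processing notes), as unfiltered matrices of 27998 genes by 6794880 barcodes with 165796852 (control) and 149413534 (LTS) UMIs. Of the kept barcodes, 13 sequences occurred in both libraries, and 0 were called microglia in both.

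The members and gene lists were chosen with earlier results of these data known. UMIs were summed per class and library and given as CPM (UMIs per 1000000). Log2 ratios used a pseudocount of 5 CPM, which understates changes of low genes, and genes with at least 20 CPM on either side; a gene was counted as higher or lower at 1.5-fold, with no test, since there was 1 library per group and cells are not replicates. Printed folds are ratios of CPM with exact conditional 95% intervals, and shares have exact Clopper-Pearson intervals; all cover counting error only. Thinning drew 1000 UMIs per barcode once. Named genes were the markers and class II, interferon and microglial genes always listed, the 10 largest and 10 smallest ratios among genes that reached 50 CPM and were seen in 10% or more of cells, and the 2 genes at each end of each list. Mitochondrial, ribosomal, haemoglobin, sex-linked, receptor-segment and unnamed genes were left out of the ranking. Clec7a, Ighm, Ighd and Trac were not analysed here, and some always listed genes are not reported here. No doublet caller was run. Alternatives changed the limits, the cells, the scaling, the pseudocount, the free RNA and the C1q level; the last was chosen after seeing the data. Python 3.11.15, numpy 2.4.6, scipy 1.17.1, pandas 2.3.3 and matplotlib 3.10.9 were used, and the ratios were tested on simulated data.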

Additional observations from a re-analysis of the deposited data

Results flagged for a closer look

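Some effects had opposite signs in the groups compared; none of these differences was tested, since each group is 1 library. The cycling list had a median log2 ratio of class II high over low of 0.20 in the control and -0.43 in LTS. Mki67 had 0.52 and -0.40, and Top2a 0.38 and -0.61. The median of the class II rule genes in LTS over control was 1.05 in class II high and -0.11 in class II low microglia, where the limit of the class holds the level down, so this pair is not independent of how the cells were chosen. Cxcl10 had a log2 ratio of LTS over control of 0.26 in high and -0.73 in low microglia.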

How the results depend on the processing

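The share of class II high microglia was larger in LTS than in the control under every setting run. In control and LTS it was 44.7% and 55.6% at a limit of 5, 23.3% and 39.0% at a limit of 20, 36.6% and 57.9% without barcodes with a UMI of Mki67 or Top2a, 42.2% and 54.7% on counts thinned to 1000 UMIs, 36.5% and 51.6% with C1q at 40 or more, and 36.8% and 58.7% with C1q at 40 or more and no such UMI. The counts of genes at 1.5-fold moved more.

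High over low in the control gave 224 higher and 169 lower genes with cells weighed equally, 731 and 924 with no CPM minimum, and 158 and 92 with C1q at 40 or more. In LTS it gave 360 higher and 119 lower with C1q at 40 or more, and lower genes numbered 1441 at a limit of 20, 258 without Mki67 or Top2a, 452 with cells weighed equally, 1388 with no CPM minimum and 268 under both cell filters. LTS over control in high microglia gave 216 higher genes at a limit of 5, 576 higher and 715 lower at a limit of 20, 949 and 718 without Mki67 or Top2a, 234 and 217 on thinned classes, 891 and 710 with cells weighed equally, 717 and 669 with no CPM minimum, 928 and 761 under both cell filters, and 545 lower with C1q at 40 or more.

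Some log2 values at 1.5-fold or more changed sign. For high over low in the control, without Mki67 or Top2a, the costimulation list was at -0.089, the chemokine list at -0.041, Cd40 at -0.080, Ciita at -0.60, Cxcl10 at -0.28 and Igf2bp2 at 0.084. With C1q at 40 or more the chemokine list was at -0.00382 and Igf2bp2 at 0.17, and under both filters the lists were at -0.17 (costimulation) and -0.11 (chemokines). In LTS, without Mki67 or Top2a, Apoe was at -0.049 and B2m at -0.012. With C1q at 40 or more the complement list was at -0.00726, Gja1 at 0.33, Gng11 at 0.19, Igf2bp2 at 0.31, Sema5a at 0.17, Tead2 at 0.48 and Twist1 at 0.60, and under both filters the interferon gamma list was at -0.058. For LTS over control, without Mki67 or Top2a, Gbp2 was at 0.00345 and Mrc1 at -0.17. Smaller or less precise values changed sign too, 33 of 581 list medians and 59 of 2211 gene values over all settings. With C1q at 40 or more these were, in the control, the lists of type I interferon (0.44 to -0.07), disease-associated microglia (0.14 to -0.30), complement (0.52 to -0.07), cathepsins (0.31 to -0.18) and cytokines (0.53 to -0.01), and, in LTS, type I interferon (0.30 to -0.22), disease-associated microglia (0.50 to -0.05) and cathepsins (0.48 to -0.13). The cause was not tested. Leaving out a replicate was not run, since each group is 1 library. No paired analysis was possible because each group has 1 library. Of the other values of single genes and lists, 1666 and 492 lay within the interval of the value reported and 545 and 89 outside it, over the settings run. The joint cell filter was not run for single genes. Depth limits genes of few counts such as Ciita, H2-Oa and Cd80.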
